A study of Homo sapiens with 10 samples.

Results

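The genes described here are CXCR4, its chemokine ligand CXCL12 and the second CXCL12 receptor ACKR3, followed over the hepatic differentiation of the embryonic stem cell line H1, which is human and long established. They are 3 of the 12125 genes measured by bulk RNA-seq. CXCR4 and CXCL12 were found by symbol, and ACKR3 by its Ensembl identifier, since it is listed under its older symbol CXCR7. H1 cells were sequenced undifferentiated at day 0, in Activin A (100 ng/ml) on days 1, 2 and 3, and in BMP2 (20 ng/ml) plus FGF4 (30 ng/ml) on days 5 and 7. Later libraries were taken in HGF plus KGF (each 20 ng/ml) on days 9, 11 and 13, and in Oncostatin M, OSM (20 ng/ml), on day 21. The label of the day 13 library names OSM, whereas the timing of the protocol ends the 6 days of HGF and KGF at day 13, and the timing was followed here. All libraries came from 1 unmodified line without a parallel undifferentiated culture, with 1 library per day and no replicate. Day, medium and library therefore cannot be told apart.

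CXCL12, also called SDF-1, is a secreted chemokine that guides migrating cells. CXCR4 is a G protein-coupled receptor that signals through Gi proteins when CXCL12 binds, drives directed migration, and is widely used as a surface marker of definitive endoderm (DE). ACKR3 binds the same ligand with high affinity, recruits β-arrestin rather than signalling through Gi, and removes CXCL12 from the surroundings of the cell. The axis is known from gastrulation, blood stem cell homing and the repair of liver.

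The deposited values are GC-normalized scores rounded to whole numbers, not read counts, and the library totals lay between 2330948 and 2362740. They do not show how deeply each library was sequenced, and no counting interval is given. Values of different genes are not scaled to gene length, so each gene is compared only with itself. Sums over gene lists are the exception, and genes of high value weigh most in them. Changes are differences of log2(value + 1), and a gene is called higher or lower when this difference was at least 2 (4-fold) and the larger value at least 50. Ratios are of the deposited values themselves, without the added 1, and so are larger than the log2 change gives for low values. Because there are no replicates, no change has a p-value. In place of replicate error, the standard deviation (SD) of the log2 differences between days 9 and 11, which share a medium, was taken over genes of similar level. It also holds any real change between these days, and it is a spread over genes rather than the error of 1 gene. This SD was 0.49 for values from 20 to 50, 0.398 from 50 to 100, 0.321 from 100 to 200 and 0.279 from 200 to 500. Between days 1 and 2, which also share a medium, the SD was larger, between 0.544 and 0.854 over the same range. In bulk RNA, fewer expressing cells and less RNA per cell cannot be told apart. The labelled stages carried their markers. POU5F1, a pluripotency factor, had a value of 4861 at day 0 and 5 at day 21, SOX17, an endoderm factor, 2 at day 0 and 790 at day 3, and ALB, the gene of albumin, 168 at day 13 and 4866 at day 21.

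Over the course CXCR4 and ACKR3 appeared together between days 1 and 3 while CXCL12 fell. The receptors then separated. CXCR4 fell by day 7 and was listed at 0 at day 13, whereas ACKR3 returned to 64.5% and CXCL12 to 94.4% of their own highest values. Of the 12 combinations of the 3 genes with the 4 medium steps, 8 were called, 4 higher and 4 lower. The 12 include CXCL12 from day 3 to day 7 and CXCR4 from day 7 to day 13. For these no call was possible, because the larger value was below 50, whereas the shares below leave such genes out. Of all genes compared, 6.1%, 10%, 5.54% and 3.89% were called in either direction in the steps ending at days 3, 7, 13 and 21.

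**Figure D1:**
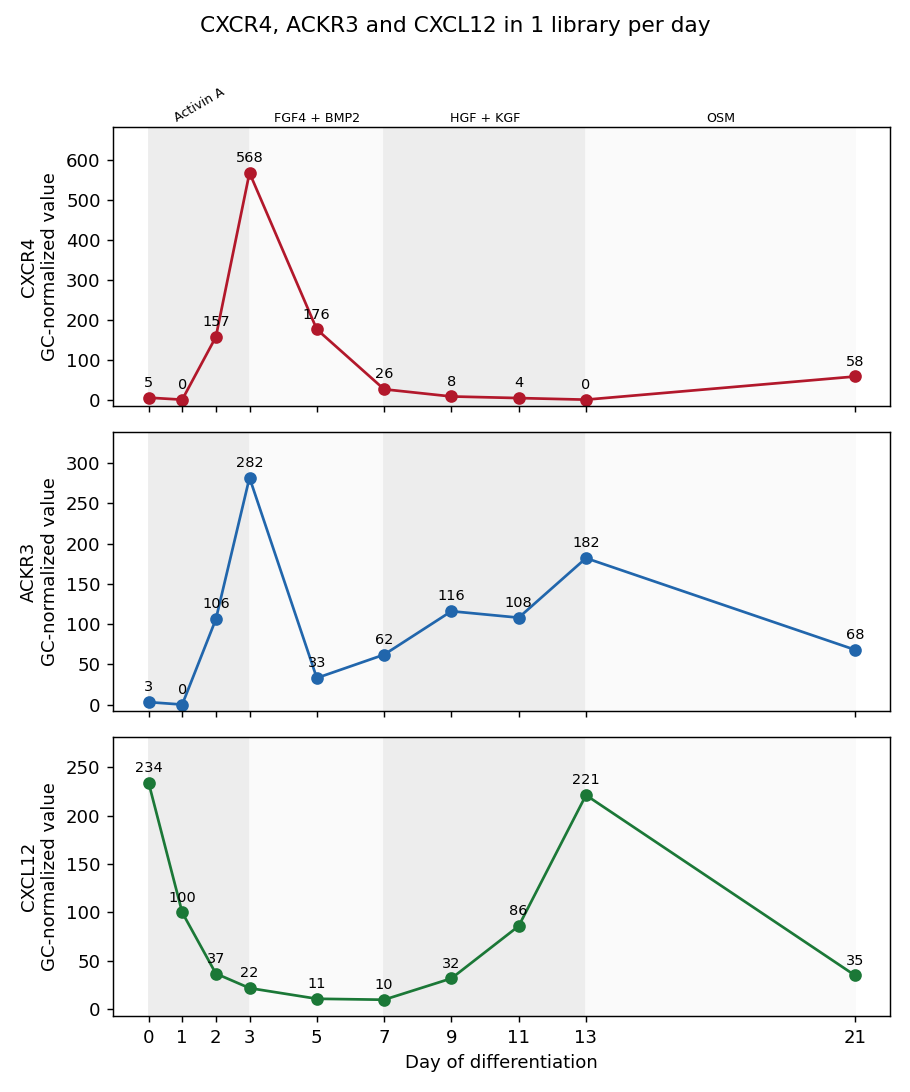
GC-normalized value of CXCR4, ACKR3 and CXCL12 (vertical axes, linear, 1 panel per gene) against the day of differentiation, with 1 library per point and the medium shaded. CXCR4 has a single peak of 568 at day 3, ACKR3 peaks of 282 at day 3 and 182 at day 13, and CXCL12 is highest at days 0 (234) and 13 (221) and lowest at day 7 (10).

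CXCR4 lies on chromosome 2 from 136871919 to 136873813 on the minus strand, and ACKR3 on the same chromosome from 237476430 to 237489740 on the plus strand, 101 megabases away. CXCL12 lies on chromosome 10 from 44865613 to 44880540 on the minus strand. These intervals are those of the deposited table. The processing notes of the submitters name hg19 and mm10 without saying which the intervals use. The gene identifiers beside the intervals are human, so they are not positions in mm10, a mouse build.

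To show the promoters of the genes with the most opposed courses, the 250 bases before the most upstream RefSeq start of CXCR4 (chr2:136118150-136118399, minus strand) and CXCL12 (chr10:44385098-44385347, minus strand) are given 5′ to 3′ in GRCh38.p14, a separate build from that of the values. Capitals mark GC boxes (GGGCGG) and TATA motifs (TATAAA), searched on both strands.
CXCR4: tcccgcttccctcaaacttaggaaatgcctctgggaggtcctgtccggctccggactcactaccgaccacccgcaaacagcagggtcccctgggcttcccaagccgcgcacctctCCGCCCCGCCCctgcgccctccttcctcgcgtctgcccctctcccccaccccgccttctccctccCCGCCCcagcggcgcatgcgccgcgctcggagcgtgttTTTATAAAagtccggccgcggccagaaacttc
CXCL12: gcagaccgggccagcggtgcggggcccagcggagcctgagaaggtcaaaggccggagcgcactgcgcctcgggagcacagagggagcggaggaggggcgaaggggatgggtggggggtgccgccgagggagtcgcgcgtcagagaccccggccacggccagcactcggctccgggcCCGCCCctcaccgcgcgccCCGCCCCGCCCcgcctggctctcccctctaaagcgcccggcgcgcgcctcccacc
GC boxes were found in both promoters, 3 in each. At least 1 was held by 42.6% of the 35116 RefSeq promoter windows of the same length, and the share with 3 was not computed. The TATA motif was found in the CXCR4 window, as overlapping matches on both strands, and not in that of CXCL12, against 10.7% of all windows. GC content was 68% for CXCR4 and 78% for CXCL12, with a median of 58% over all windows. The letters of 4 other motifs, GGTGTG for T-box factors, AATNNACA for FOXH1, AGATAA for GATA factors and ATTGT for SOX factors, matched neither window on either strand, and each was held by between 9.17% and 24.6% of all windows. These matches are descriptions of the letters and do not show binding.

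Among the receptors, CXCR4 had values of 5, 0, 157 and 568 on days 0, 1, 2 and 3. Its values were 176 and 26 on days 5 and 7, then 8, 4 and 0 on days 9, 11 and 13, and 58 on day 21. The day 3 library alone held the highest level. It exceeded the next, day 5, by 1.68 on the log2 scale, more than 2 SD, whereas days 5 and 2 differed by 0.16, less than 1 SD. Within the Activin A step the gene was therefore near 0 for a day and at its maximum 2 days later. From day 0 to day 3 the log2 change was 6.57 (568 over 5 is a ratio of 114), and CXCR4 was called higher, as were 3.94% of the 8934 genes compared. The size of this change rests on a day 0 value near the low end of the scale, and with 5 in place of 1 added to each value it was 5.84. From day 3 to day 7 its log2 change was -4.40, and it was called lower, as were 4.41% of 9100 genes. From day 3 to day 5 the log2 change was -1.68, and from day 5 to day 7 it was -2.71, although on the linear scale the larger loss, from 568 to 176, came first. The values of 8, 4 and 0 under HGF and KGF lie at the low end of the scale, where libraries of a shared medium differ most, and their order was not separable.

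ACKR3 had values of 3, 0, 106 and 282 on days 0, 1, 2 and 3. Its values were 33 and 62 on days 5 and 7, then 116, 108 and 182 on days 9, 11 and 13, and 68 on day 21. Like CXCR4 it was near 0 at days 0 and 1 and highest at day 3. From day 0 to day 3 its log2 change was 6.14 (282 over 3 is a ratio of 94), and both receptors were called higher in this step. With 5 added in place of 1 the change of ACKR3 was 5.16. From day 3 to day 7 ACKR3 was called lower with a log2 change of -2.17. Its fall came earlier, with a log2 change of -3.06 between days 3 and 5, when 11.7% of the day 3 value remained, against 31% for CXCR4. ACKR3 then stood at 62 at the end of the FGF4 and BMP2 step and at 182 at the end of HGF and KGF, days over which CXCR4 went from 26 to 0. The log2 change of ACKR3 was 1.54 over the HGF and KGF step and -1.41 over the OSM step. Neither was called, although both exceeded 4 SD of days 9 and 11. At this level that SD was 0.321, against 0.544 between days 1 and 2. The second maximum at day 13 was lower than the first by 0.63 on the log2 scale, over 2 SD by days 9 and 11 and under 2 SD by days 1 and 2. Days 9, 11 and 2, with 116, 108 and 106, did not differ beyond the spread.

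CXCL12, the ligand, had values of 234, 100, 37 and 22 on days 0, 1, 2 and 3. Its values were 11 and 10 on days 5 and 7, then 32, 86 and 221 on days 9, 11 and 13, and 35 on day 21. Each library up to day 7 was below the one before it, and each from day 7 to day 13 above. From day 0 to day 3 the log2 change was -3.35, a ratio of 10.6, and CXCL12 was called lower, as were 2.16% of genes. At day 1, when both receptors were listed at 0, CXCL12 was already at 42.7% of its day 0 value. From day 7 to day 13 its log2 change was 4.33, a ratio of 22.1, and it was called higher, as were 3.08% of 8892 genes, with 2.46% lower. The libraries of days 9 and 11, from which the SD was taken, differed by 1.40 for CXCL12 itself, more than 3 SD of genes of that level. The values of days 0 and 13 differed by 0.08, within the spread. From day 13 to day 21 CXCL12 was called lower with a log2 change of -2.62, as were 1.62% of 8786 genes. Between days 3 and 7 no call was possible for it, because its larger value, 22, was below 50. In that step 5.63% of genes were called higher.

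**Figure D2:**
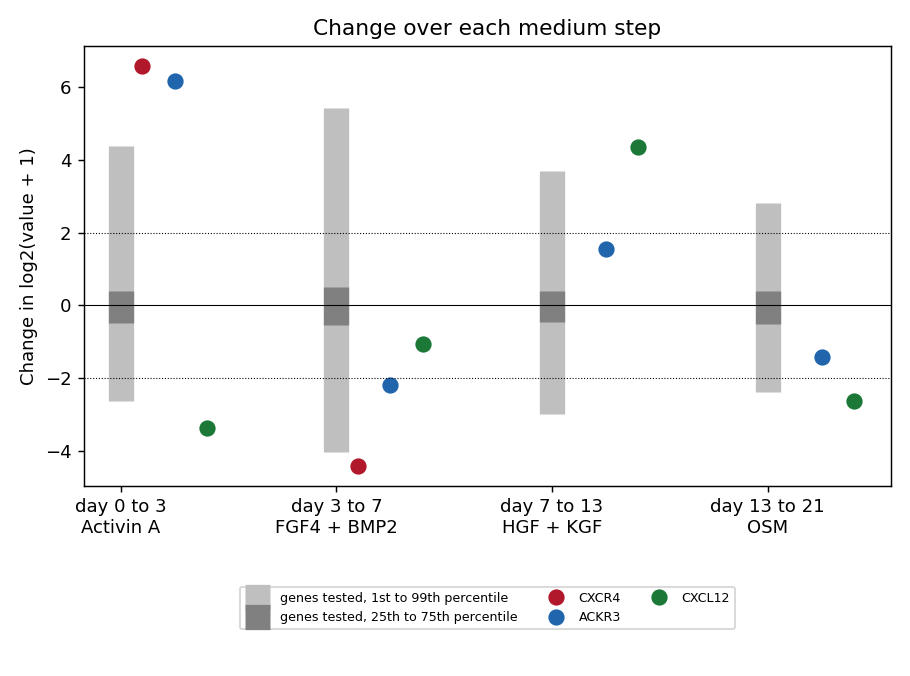
Change in log2(value + 1) over each medium step (vertical axis, 0 is no change, dotted lines at -2 and 2) for CXCR4, ACKR3 and CXCL12, beside bars for the 1st to 99th and 25th to 75th percentiles of all genes whose larger value was at least 50. CXCR4 has no point from day 7 to 13 or from day 13 to 21, since it was listed at 0 at day 13. Both receptors lie above the 99th percentile (4.38) and CXCL12 below the 1st (-2.63) from day 0 to day 3.

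The 3 genes did not form a single pattern. Over the 10 libraries, which are successive days of 1 culture series and not independent, Pearson's r of log2(value + 1) was -0.74 between CXCR4 and CXCL12, 0.46 between CXCR4 and ACKR3, and -0.35 between CXCL12 and ACKR3. With the libraries listed at 0 left out the values were -0.61 over 8 libraries, 0.45 over 8 and -0.27 over 9. At day 3 both receptors were at 100% of their highest value and the ligand at 9.4%. At day 13 the ligand was at 94.4% and ACKR3 at 64.5%, with CXCR4 listed at 0.

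The study chose CXCR4 as an early endoderm gene for its single-cell qPCR, so 13 other endoderm genes that it chose were set beside CXCR4. Of these, 11 were called higher from day 0 to day 3, with a median log2 change of 6.64 against -0.06 for all genes compared, of which 3.94% were called higher. The panel was chosen by the study for this stage and its direction is not independent evidence. The highest value was at day 3 for 7 of the 13 genes, as for CXCR4, and at day 2 for 3, of which CER1 held the ceiling value of the table at days 2 and 3 alike. At day 1, when CXCR4 was listed at 0, 7 of the 13 were at 10% or more of their own highest value, of which KIT and SMAD3 had been so at day 0 and the other 5 had not. Among the 5, EOMES and MIXL1, transcription factors of mesendoderm, were at 75.8% and 85.5%. SOX17, which is required for endoderm, was at 2 at day 1 and 745 at day 2, and LGR5, a receptor for R-spondins, at 0 and 44, so that both left the low end of the scale in the same library as CXCR4. GATA4 did so too, with 6 at day 1 and 160 at day 2, but its correlation with CXCR4 was 0.52. The highest correlations with CXCR4 in the panel were those of SOX17 (r = 0.85) and LGR5 (r = 0.84) over 10 libraries. Of the 10 genes that were highest by day 3, 3 kept a larger share of their highest value at day 5 than CXCR4 (KIT, SOX17 and GATA6) and 7 a smaller one. CER1, a secreted Nodal antagonist among the 7, went from 18734 at day 3 to 9. From day 3 to day 7, 7 of the 13 were called lower and none higher, against 4.41% lower and 5.63% higher over all genes compared.

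At day 21 CXCR4 had a value of 58 after 0 at day 13, and was called higher, as were 2.28% of genes. The larger value lies just above the limit of 50, and no fold is given against 0. Of 17 leukocyte genes listed, only 4 were found among the genes measured, and the same library held the highest values of all 4. The rest of the list could not be compared, so these 4 do not stand for it. PTPRC, the leukocyte phosphatase CD45, was listed at 0 from day 3 to day 13 and had 65 at day 21, but also had 39 in the undifferentiated cells. LAPTM5 had 33 at day 13 and 92 at day 21, CORO1A, an actin regulator, 6 and 52, and CD68, a macrophage marker, 50 and 259. CORO1A also had 26, 44 and 24 on days 0, 1 and 2, when LAPTM5 had 3, 4 and 4 and CD68 was listed at 0. Of the 4, PTPRC, CORO1A and CD68 were called higher, against 2.28% of all genes, and the sum of the 4 values, between 4 and 89 in the other libraries, was 468 at day 21. DOCK2, a guanine exchange factor of migrating leukocytes, had 1 at day 13 and 28 at day 21, but was highest at day 0 (36). MMP9, a protease that cleaves CXCL12, had 3 and 60, and 39 at day 0. At day 3, where CXCR4 was highest, the leukocyte sum was 13, with PTPRC and CD68 listed at 0. The part of such cells in the CXCR4 value of day 21 was not tested.

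CXCL12 is a product of stromal cells, and the stromal list was set beside it in the same way. Of its 12 genes, 6 were called higher from day 7 to day 13 and none lower, with a median log2 change of 2.67, against 3.08% higher and 2.46% lower over all genes, and the sum of their values went from 6397 to 45984. DCN, a small proteoglycan, went from 9 to 2802 and POSTN, a matrix protein, from 62 to 1252 over the days in which CXCL12 went from 10 to 221. Before day 7 the list was mixed. The sum lay between 2908 and 3165 from day 0 to day 5, while CXCL12 went from 234 to 11. A steady sum does not mean steady genes, since THY1 fell from 2164 to 20 and COL5A1 rose from 72 to 1490. The median of log2(value + 1) over the list was 5.278 at day 0 and 6.001 at day 5. At day 0 COL3A1 and LUM were listed at 0, COL1A1 and COL1A2 had 294 and 390, and THY1, a surface glycoprotein also carried by stem cells, was highest (2164) and at 10 by day 7. At day 21, when CXCL12 was called lower, 0 of the 12 stromal genes were called in either direction and their sum was 60861. COL1A2 held the ceiling value of the table, 18734, at days 13 and 21, and COL5A1 at day 21. High values below the ceiling also recurred, with COL3A1 at 6502 on days 9, 11, 13 and 21 and DCN at 2802 on days 13 and 21. Equal values so high on this scale need not mean that a gene was unchanged. A change above the ceiling would not show, so these calls and the sums of both days are limited. Endothelial genes also moved between days 7 and 13, when CDH5 and TEK were called higher and the sum of 10 genes went from 674 to 2458. The part of these cell types in the CXCL12 values was not tested.

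**Figure D3:**
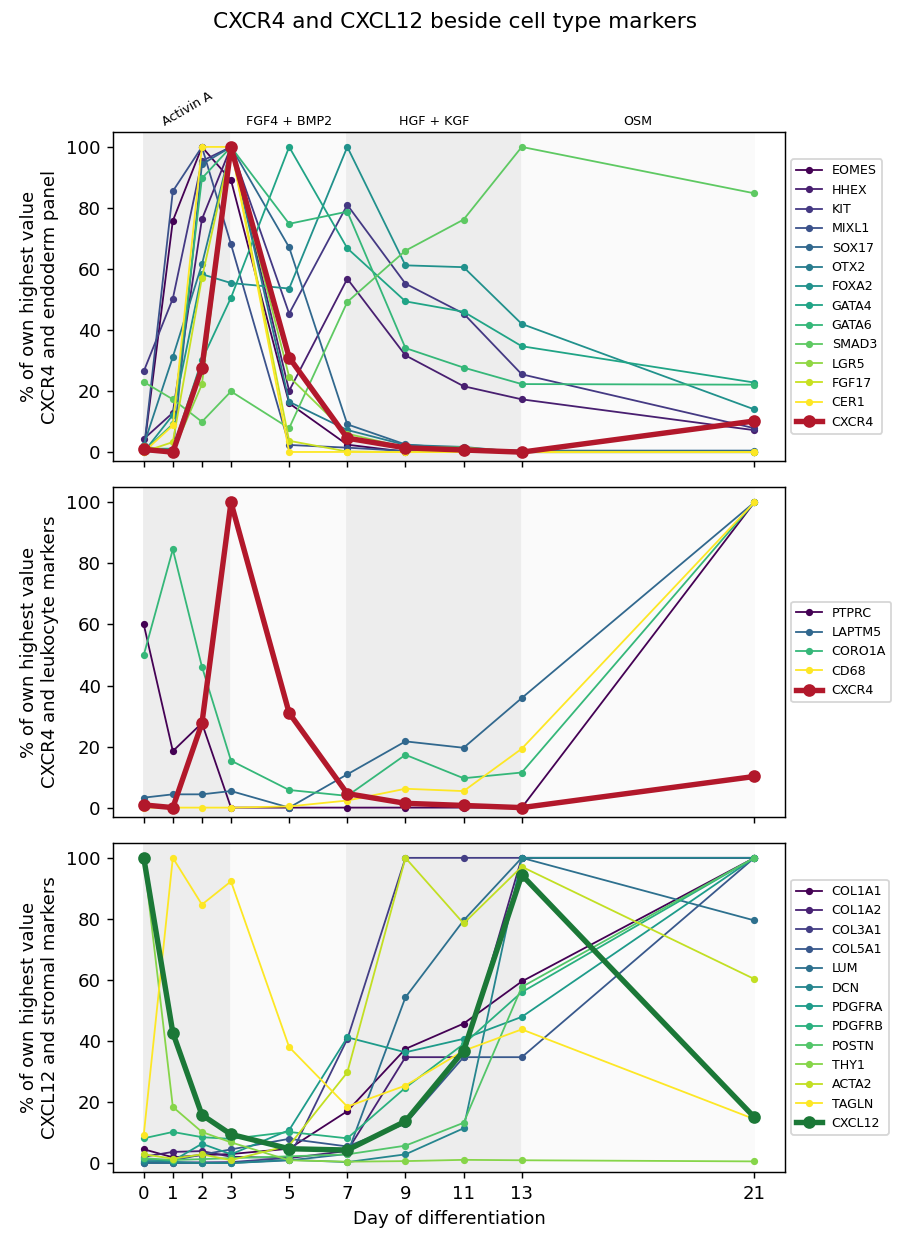
Percent of each gene's own highest value (vertical axes) by day of differentiation for CXCR4 beside the endoderm panel (top), CXCR4 beside 4 leukocyte genes (middle) and CXCL12 beside 12 stromal genes (bottom), with 1 library per point. CXCR4 is at 10.2% at day 21, where all 4 leukocyte genes are at 100%, and CXCL12 is at 94.4% at day 13 and 15% at day 21, where 8 of the 12 stromal genes are at 100%. Of the 8, COL1A2, COL3A1 and DCN are at 100% at day 13 as well.

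Downstream and around the axis, 55 genes of 65 listed were analysed, covering G proteins and arrestins, migration signalling, and proteins that process the ligand or share a receptor with it. Of the 53 that reached 50 in a compared library, 13 were called in at least 1 step, against 16.9% of the 10463 such genes in all. From day 0 to day 3, when both receptors appeared, 2 were called higher and 1 lower of 46 compared, with a median log2 change of 0.09, a share close to the 6.1% of all genes. The Gi subunit genes that couple CXCR4 were measured throughout, GNAI2 between 544 and 902 and GNAI3 between 190 and 381, and neither was called. GNAI1 went from 96 at day 0 to 448 at day 21 without a call in any step.

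The arrestin ARRB1 had values of 96, 104, 222 and 227 on days 0, 1, 2 and 3, then 141 on day 5 and between 176 and 271 later. Its correlation with ACKR3 was the highest of the 55 genes (r = 0.92 over 10 libraries), and it was picked out after its values were seen. ARRB2, its paralog, had 138 in undifferentiated cells, 48 on day 3 and 30 on day 13. Neither arrestin was called.

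RGS5, a GTPase activator that shortens Gi signals, was called higher by day 3 (46 at day 0 and 425 at day 3), reached 4858 at day 5, and was called lower in both later steps from 1158 at day 7. The γ subunit gene GNG2 had 36, 412 and 15 on days 3, 7 and 13, called higher and then lower. DPP4, the protease CD26 that inactivates CXCL12 by removing its first residues, had 6, 195 and 1000 on days 3, 5 and 7. On these days CXCL12 had 22, 11 and 10, of which 11 and 10 were not separable. DPP4 had 428 at day 13, when CXCL12 was back at 221, and was highest at day 21 (1184), when CXCL12 had 35. A link between these RNA levels was not tested. ADM, the precursor of adrenomedullin, which also binds ACKR3, was called higher from day 3 (164) to day 7 (724), lower to day 13 (67) and higher to day 21 (276). MIF, another ligand of CXCR4 and ACKR3, had its highest value at day 0 (1087) and its lowest at day 7 (252) and was not called, while its receptor CD74 was called lower by day 3, from 102 to 14.

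**Figure D4:**
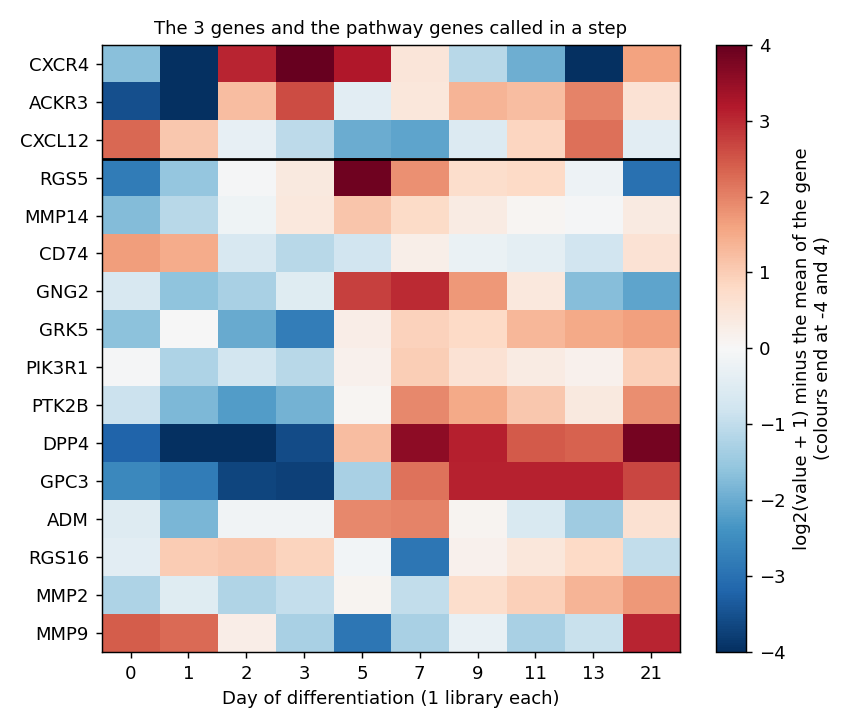
log2(value + 1) minus the mean of each gene over the 10 libraries (colour, ending at -4 and 4) for CXCR4, ACKR3 and CXCL12, above the line, and the 13 pathway genes called in at least 1 step. RGS5 is highest at day 5 (4858), GNG2 at day 7 (412), and DPP4 at day 21 (1184).

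Of the other chemokine genes listed, CXCL14 and CCL2 were the ligands analysed, and no other chemokine receptor was analysed here. CCL2, a monocyte attractant, had 1 and 101 on days 0 and 3, called higher, and 2 on day 21. CXCL14, a chemokine of epithelia, had 43 and 4 on days 3 and 7, was called higher by day 13 (244) and had 353 on day 21.

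The genes with the courses most like each of the 3 were then named among 10745 genes that reached 50 in any library. For CXCR4 these included KLF8 (r = 0.955), RHPN2, STC1, IL17RA, GRB10, DDHD1, MYOCD, GTF2IRD1 and PTPN1 (r = 0.898), and the most opposite were NMD3 (r = -0.978), ADCK3 and PPID. STC1, the gene of stanniocalcin 1, had 11, 1434, 18 and 209 on days 1, 3, 13 and 21. For ACKR3 they were LIX1L (r = 0.974), DACT2, FAM50A, KIAA1462, RNF216, CES2, PSMD9, PRDM1, PRSS35 and TMEM185A (r = 0.925), with MORC2 (r = -0.906), ZNF660 and CASC3 the most opposite. PRSS35, a serine protease-like gene, had 404, 68 and 373 on days 3, 7 and 13, with maxima on the same days as ACKR3. For CXCL12 they were PKIA (r = 0.949), GMPR2, PJA1, INPP5B, MYLK, FGD5-AS1, NDUFV1, ELP2, C11orf68 and RBPMS (r = 0.881), with DNAJB11 (r = -0.943), GPR55 and PLEKHB2 the most opposite. A high correlation does not mean a similar range, since PKIA, a protein kinase A inhibitor, lay between 54 and 146. With the day 21 library left out, 2 of the 10 genes most like CXCR4, 6 of those for ACKR3 and 4 of those for CXCL12 were again among the 10 most alike.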

How the data were processed

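Bulk RNA of H1 cells was sequenced by the authors on 10 days with the TruSeq kit, and aligned to a transcriptome that the methods name Ensembl v76 (mm10), although identifiers are human. The submitters' processing notes list RSEM v1.2.17 and Bowtie2 v2.2.0, and GC content was normalized with EDASeq v2.0.0. The deposited values are scores: whole numbers with nearly the same distribution in every library, so depth per library and counting error are unknown (the methods state only an average depth) and no count model was used. Every library has the same highest value, 18734, far above the 3 genes, and values are not scaled to gene length.

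Columns were matched to days by name and title. Differences of log2(value + 1), calls (at least 2, with the larger value at least 50) and correlations were computed with Python 3.11.15, numpy 2.4.6 and pandas 2.3.3, plots with matplotlib 3.10.9, and the code was tested on simulated data. The 3 genes and all lists were chosen with earlier results of these data known. The genes named are the 3, list members that were called or had a large range, and the 10 most alike and 3 most opposite genes of each, of which 1 is not reported here. Of the 114 list genes analysed, 2 were matched by Ensembl identifier and 112 by symbol. Promoter windows are from RefSeq (GRCh38.p14), which gave windows for CXCR4 and CXCL12. Alternatives were other pseudocounts, scalings, filters and correlations.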

Additional observations from a re-analysis of the deposited data

How the results depend on the processing

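With 1 library per day nothing here has a replicate check, and values below about 20 are the least certain. No paired analysis was possible because each day has 1 library. The 10 log2 changes given for the 3 genes over the medium steps were recomputed with 4 alternatives, giving 40 values. None changed sign, but another pseudocount cannot reverse a sign. The library totals were already nearly equal, so scaling could move these changes only a little. The unchanged signs are therefore not a test of the changes. With a pseudocount of 5 in place of 1, the rise by day 3 became 5.84 for CXCR4 and 5.16 for ACKR3, and that of CXCL12 from day 7 to day 13 became 3.91. With a pseudocount of 0.1 the rise of ACKR3 by day 3 became 6.51. The other 36 values moved by less than 1 SD of days 9 and 11. The call of CXCR4 at day 21 was lost under a floor of 200 for the larger value, its loss between days 7 and 13 was called without a filter, and ACKR3 was called higher by day 13 and lower by day 21 with a log2 difference of at least 1. Over the steps ending at days 3, 7, 13 and 21, 545, 913, 493 and 342 genes were called. Without a filter on low values there were 906, 1430, 818 and 670, with a larger value of at least 200 there were 237, 395, 189 and 149, and with a difference of at least 1 there were 1801, 2362, 1588 and 1551. Of the 55 pathway genes, 3, 8, 5 and 3 were called, and 14, 16, 13 and 12 with a difference of at least 1. Of the 10 genes most like CXCR4, 4 remained with a value of at least 200 required, 2 without the day 21 library and 6 with a pseudocount of 5. Of those for CXCL12, 5 remained by Spearman correlation, 5 with a value of at least 200 and 4 without day 21, and of those for ACKR3 4, 5 and 6. The floor of 200 removes any gene that never reaches 200, so its counts do not measure how stable the rankings are. For each of the 3 genes, every most alike gene that reached 200 in a library remained under it. This had to be so, since the floor only takes genes away and leaves each correlation as it was. The cause of the other differences was not tested. Scaling by the median of ratios left the median change of all genes between -0.025 and 0.0037 in the 4 steps. With days 1 and 2 in place of days 9 and 11, the SD at levels rising from 10 to 1000 was 1.57, 0.854, 0.66, 0.544, 0.573 and 0.597.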

Other observations

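The genes that flank the 3 in the deposited table were looked at after the values of the 3 were known. CXCR4 lies between DARS, 129 kb away, and THSD7B, 649 kb away. DARS, the cytosolic aspartyl-tRNA synthetase, had 404, 193 and 182 on days 0, 3 and 13, and THSD7B had between 2 and 28. ACKR3 lies between AGAP1 and COPS8, at 715 and 504 kb, and CXCL12 between ZNF32 and RASSF4, at 721 and 574 kb. None of these 6 genes was called in any of the 4 medium steps. RASSF4 had 49, 10 and 106 on days 0, 5 and 11.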
